A study of Mus musculus with 6 samples.

Results

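Ksr1, Ksr2, Araf, Braf, Map2k1, Map2k2 and Mapk3 encode the Ksr scaffolds and most of the kinases of the Raf-MEK-ERK cascade. These 7 genes were looked up by symbol among the 27179 Entrez gene IDs of each count table, and all 7 were found. They were chosen by their place in this cascade with their diet differences in these same libraries already known, so those differences are given as a description and lend no weight to one another. RNA-seq was run on satellite cells, the Pax7-expressing stem cells of skeletal muscle, sorted by flow cytometry from muscle of wild-type C57Bl/6N mice. There were 3 libraries from mice on a high-fat diet and 3 from mice on a chow diet, from at least 50000 cells each. The study compared obese with lean mice, and the labels give neither the animals' age nor whether a library came from 1 animal or several. The p-values therefore describe the variation among 6 libraries and not necessarily among animals.

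Growth factor receptors activate the small GTPase Ras, which recruits Raf kinases to the membrane. Raf phosphorylates the MEK kinases, MEK phosphorylates the ERK kinases, and ERK acts on transcription factors of immediate early genes. The Ksr proteins resemble Raf but serve mainly as scaffolds that hold Raf, MEK and ERK together. In satellite cells the cascade carries signals of fibroblast growth factors and is known for its part in activation and proliferation. Ksr2 is best known from the brain, and mice that lack it become obese. RNA-seq does not measure phosphorylation.

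Total counts ran from 14930394 to 18217818 per library. High-fat diet library 1 and chow library 3 stood apart by the number of tested genes without a read, which was 1066 in high-fat diet library 1 and 1063 in chow library 3, against 265 to 556 in the other 4 libraries. Where leaving out these or other libraries changed a call or a direction, the value without them is given. Satellite cell markers were present in all libraries, with a summed level of 4191 to 5179 CPM (counts scaled to the library size) in high-fat diet libraries and 4339 to 5180 CPM in chow libraries over 10 genes. Within this list Pax7 averaged 234 ± 57.3 CPM with the high-fat diet, against 402 ± 29.8 CPM with chow, whereas Itga7 averaged 369 ± 42.3 CPM in high-fat diet libraries and 245 ± 45.5 CPM in chow libraries (SD, n = 3 each). Chrdl2 averaged 436 ± 75.8 CPM in high-fat diet libraries and 296 ± 44.1 CPM in chow libraries. The diets did not overlap for these 3 genes, each had an unadjusted p under 0.05, and none passed after adjustment in edgeR (adjusted p = 0.180, 0.328 and 0.373). Over all tested genes, 7.87% were lower and 7.42% higher with the high-fat diet without overlap, and 7.65% had an unadjusted p under 0.05. The part of these marker differences in the members' levels was not tested. The 10 immune markers summed to 11.1 to 31.7 CPM in high-fat diet libraries and 21.9 to 52.4 CPM in chow libraries. Of these, 5 were tested, of which 3 had a negative and 2 a positive log2 fold change. None of the 5 was called or had an unadjusted p under 0.05 in edgeR. Cd68 averaged 11.4 ± 5.67 CPM in high-fat diet libraries and 22.6 ± 7.82 CPM in chow libraries. Its values overlapped between the diets (edgeR adjusted p = 0.794). Adgre1, C1qa and Cd3e were at 0 in all 6 libraries.

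Ksr2 was the 1 member called between the diets. No read of Ksr2 was counted in any of the 3 high-fat diet libraries, whereas 420, 95 and 131 reads were counted in chow libraries 1, 2 and 3. After TMM scaling of the library sizes, this came to 0 CPM in each high-fat diet library, against 26.4, 5.54 and 7.52 CPM in the chow libraries. All chow libraries thus lay above all high-fat diet libraries, and chow library 1 held most of the reads. A count of 0 allows up to 3 reads, or 0.195 CPM in the shallowest high-fat diet library, so that Ksr2 was at least 67.4-fold lower with the high-fat diet than the chow mean of 13.1 ± 11.5 CPM (SD, n = 3). The bound was 33.5-fold without chow library 1 and 28.4-fold against the lowest chow library. The labels describe no molecular identifiers, and such limits cover counting error alone.

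Ksr2 passed the threshold of an adjusted p under 0.05 in edgeR's quasi-likelihood test, adjusted by Benjamini-Hochberg over all 13202 tested genes (adjusted p = 0.0373). It entered the test only through its chow counts. The call was lost without any 1 of the 6 libraries, with edgeR adjusted p from 0.0539 without high-fat diet library 3 to 0.423 without chow library 1. It was also lost in limma-voom (adjusted p = 0.141) and in edgeR without both libraries that stood apart (adjusted p = 0.170). With the replicate number as a block in edgeR it was lost too (adjusted p = 0.0594). With DESeq2 the adjusted p was 1.19e-07. Over all tested genes, 11 were at 0 with the high-fat diet and above 0 in each chow library, and 15 showed the opposite. Ksr2 was the only gene of the 11 or the 15 with at least 95 reads in each library of the other diet, a minimum taken from Ksr2 itself after its counts were seen. Of 2056 genes with a mean of 5 to 10 CPM over the 6 libraries, the class that holds Ksr2, 228 (11.1%) were at 0 in at least 1 library.

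The sequences before the start sites of both scaffold genes are shown because these paralogues differed in whether a library held any read at all. Each window is the 250 bases before an annotated start from RefSeq (GRCm38.p6), 5′ to 3′, with capitals marking each GC box (GGGCGG on either strand).
Ksr2, chr5:117413752-117414001, + strand: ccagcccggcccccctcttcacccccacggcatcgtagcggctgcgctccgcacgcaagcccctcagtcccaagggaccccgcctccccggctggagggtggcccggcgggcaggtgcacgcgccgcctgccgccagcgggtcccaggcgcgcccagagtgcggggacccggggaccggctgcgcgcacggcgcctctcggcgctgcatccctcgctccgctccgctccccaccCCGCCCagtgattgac
Ksr1, chr11:79146474-79146723, - strand: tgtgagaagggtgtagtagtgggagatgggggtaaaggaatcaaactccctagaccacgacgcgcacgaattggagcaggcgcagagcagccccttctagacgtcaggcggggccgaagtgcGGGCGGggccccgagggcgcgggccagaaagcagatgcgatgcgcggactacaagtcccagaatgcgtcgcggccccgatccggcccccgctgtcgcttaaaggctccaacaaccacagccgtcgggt
The Ksr2 window was 78.0% G and C with 31 CpG dinucleotides, and the Ksr1 window was 64.4% G and C with 25, against medians of 52.4% and 6 over 32851 promoter windows of the same length. Each held 1 GC box, a motif found in 32.7% of all windows, and neither held the TATA box TATAAA, which 12.4% of all windows held. Promoter windows were matched for 6 of the 7 members. Ksr1 has a further annotated start, whose window is not shown and had 58.0% G and C with 3 CpG dinucleotides. The windows of Map2k1, Braf, Map2k2 and Araf held 24, 24, 23 and 12 CpG dinucleotides.

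Ksr2 (chromosome 5, 117414002 to 117767996, GRCm38) overlaps a long noncoding RNA gene, Gm42013, in position. No overlap of their exons was recorded. Exons were compared only for genes matched to GENCODE M21 exons, so a gene without a match would also show none. No 75-base window of the annotated Ksr2 transcripts occurs in an annotated transcript of another gene. Neural cells are a known source of Ksr2, and the 6 Schwann cell markers summed to 32.2, 55.8 and 48.1 CPM in high-fat diet libraries 1, 2 and 3, against 33.9, 73.8 and 50.5 CPM in chow libraries 1, 2 and 3. These ranges overlapped, the median log2 fold change of the list was -0.99, 0 of the 6 markers were called or had an unadjusted p under 0.05 in edgeR, and the part of such cells in the Ksr2 counts was not tested. In sorted cells in bulk, fewer cells of a type and less RNA per cell cannot be told apart.

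Ksr1, the more widely expressed scaffold (chromosome 11, 79013440 to 79146533), was detected in every library. Its level was 14.3, 44.0 and 43.8 CPM in high-fat diet libraries 1, 2 and 3, against 47.3, 38.5 and 66.5 CPM in chow libraries 1, 2 and 3. The diets overlapped, and the lowest and the highest value were those of the libraries that stood apart. The log2 fold change was -0.58 (SE 0.43, edgeR adjusted p = 0.894). Without both of these libraries it was 0.045, of the opposite sign.

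**Figure D1:**
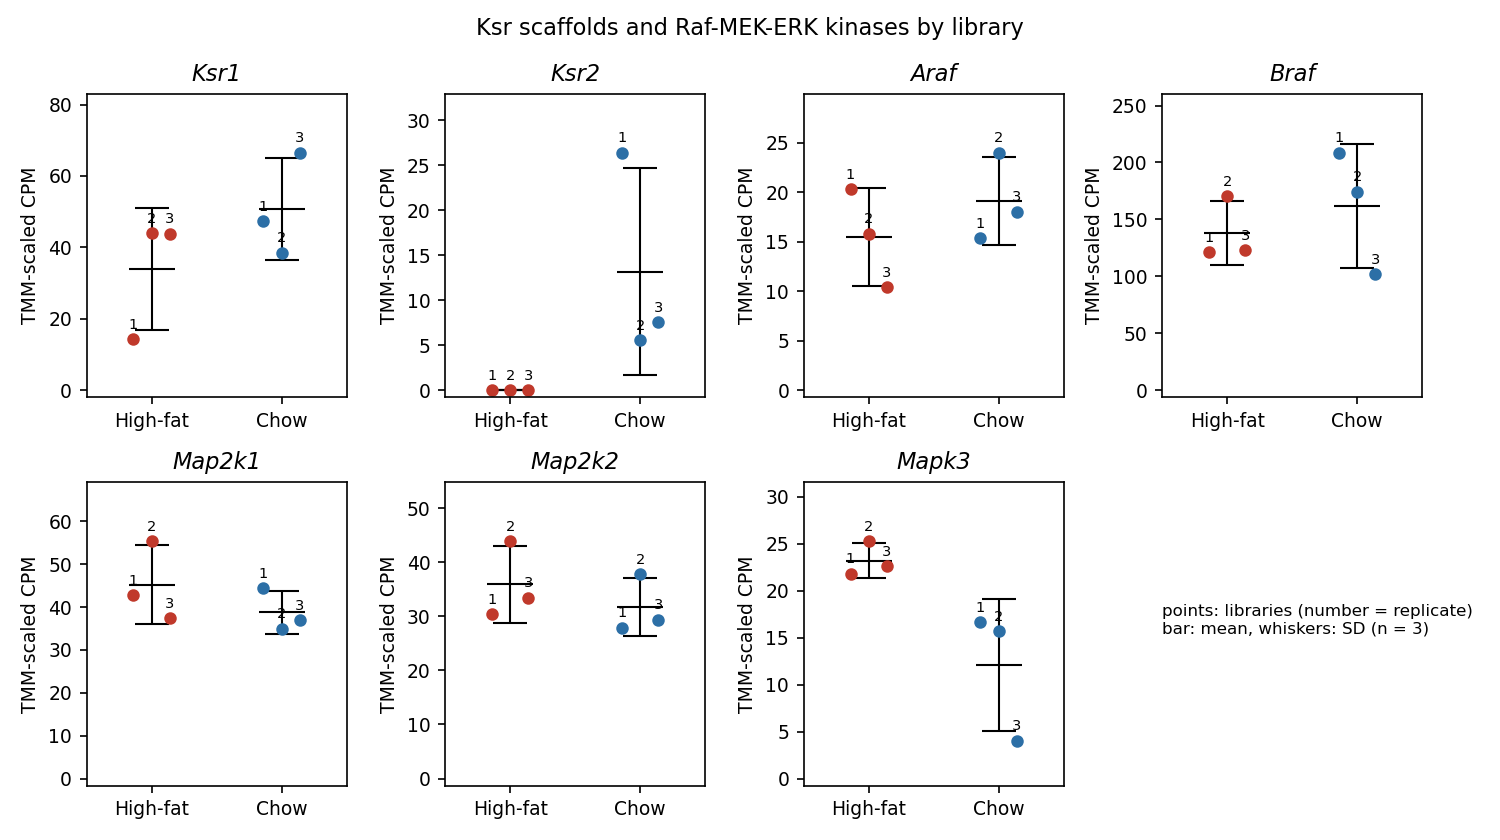
Levels of the 7 genes in TMM-scaled CPM (vertical axes, each from 0), with the 3 high-fat diet libraries left and the 3 chow libraries right in each panel. Points are libraries numbered by replicate, bars are means and whiskers SD. Ksr2 is at 0 in all high-fat diet libraries, and Mapk3 lies above all chow libraries with the high-fat diet.

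Neither Raf kinase was called, and the diets overlapped for both. Braf, the Raf kinase with the highest basal activity (chromosome 6, 39603231 to 39725658), was at 121, 170 and 123 CPM in high-fat diet libraries 1, 2 and 3, against 209, 174 and 102 CPM in chow libraries 1, 2 and 3. The chow values spanned all 3 high-fat diet values. Its log2 fold change of -0.23 (SE 0.26, edgeR adjusted p = 0.968) was 0.0077 without chow library 1. Araf, an X-linked Raf kinase of low basal activity (chromosome X, 20797707 to 20860521), had 20.3, 15.8 and 10.4 CPM with the high-fat diet, against 15.3, 23.96 and 18.03 CPM with chow. These values also overlapped, with a log2 fold change of -0.30 (SE 0.53, edgeR adjusted p = 0.996). In the annotation the exons of Araf overlap those of Syn1.

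Both MEK genes, whose products activate ERK by phosphorylation, had small positive diet differences that did not pass the test. Map2k1, which encodes MEK1 (chromosome 9, 64185769 to 64253605), was at 42.7, 55.3 and 37.4 CPM in high-fat diet libraries 1, 2 and 3, against 44.3, 34.9 and 36.9 CPM in chow libraries 1, 2 and 3. Map2k2, which encodes MEK2 (chromosome 10, 81105913 to 81124697), had 30.4, 43.9 and 33.4 CPM with the high-fat diet, against 27.9, 37.8 and 29.3 CPM with chow. For both genes the diets overlapped and high-fat diet library 2 was the highest of the 6. The log2 fold changes were 0.22 for Map2k1 (SE 0.32) and 0.18 for Map2k2 (SE 0.36), with edgeR adjusted p of 0.989 and 0.999. Without high-fat diet library 2 they were 0.046 for Map2k1 and 0.0075 for Map2k2. Among the members, these genes also had the narrowest spread within chow, with coefficients of variation of 12.8% for Map2k1 and 17.0% for Map2k2.

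Mapk3, which encodes ERK1, had the largest difference among the 6 members detected in every library, and it did not pass the test. It lies on chromosome 7 from 126759626 to 126765816. Its level was 21.8, 25.3 and 22.6 CPM in high-fat diet libraries 1, 2 and 3, against 16.6, 15.7 and 4.02 CPM in chow libraries 1, 2 and 3. The diets did not overlap, the high-fat diet values lay close together, and the lowest value, from 70 reads, was that of chow library 3. The log2 fold change was 0.94 (SE 0.60, edgeR adjusted p = 0.837), or a ratio of 1.92. It was 0.52 without chow library 3 and 1.24 without chow library 1, the lowest and highest values without 1 library.

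**Figure D2:**
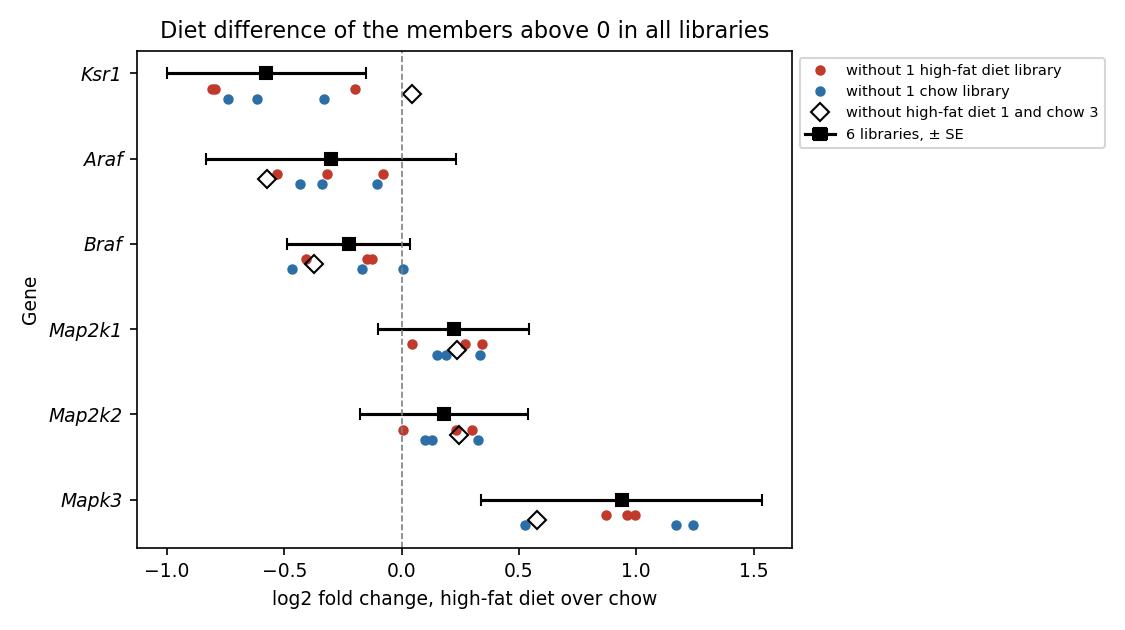
Log2 fold change of high-fat diet over chow (horizontal axis) for the 6 genes detected in every library. Squares with bars are the fit to 6 libraries with its SE, circles leave out 1 library (red, a high-fat diet library; blue, a chow library) and open diamonds leave out high-fat diet library 1 and chow library 3; Ksr2 is not drawn because its fold change is a bound. The diamond of Ksr1 lies at 0.045, and all values of Mapk3 lie above 0.5.

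Of the 7 members 1, Ksr2, was called, and it was lower, where 0.258% of all tested genes were called and 0.167% were called lower. The diets did not overlap for Ksr2, lower with the high-fat diet, and for Mapk3, higher with it, against 7.87% and 7.42% of all tested genes in these directions. Since the members were picked with this contrast in view, nothing is read from these shares. The median log2 fold change of the 7 was -0.23, beside -0.01 over all tested genes.

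The members' levels were also set against each other over all 6 libraries, irrespective of diet. Per kilobase (kb) of annotated exon and as a mean ± SD over 6 libraries, the order was Map2k1 (12.4 ± 2.21 CPM per kb), Braf (10.8 ± 2.95), Mapk3 (7.83 ± 3.38), Ksr1 (5.97 ± 2.37), Map2k2 (5.97 ± 1.07), Araf (2.65 ± 0.71) and Ksr2 (0.484 ± 0.753). The gap between neighbours was smaller than the larger of their SDs from Map2k1 down to Map2k2. It was larger between Map2k2 and Araf and between Araf and Ksr2, where all 6 libraries kept the order. For Ksr2 this includes the high-fat diet counts of 0 known when the members were chosen. In chow libraries 1, 2 and 3 Araf was at 2.34, 3.66 and 2.76 CPM per kb, against 1.94, 0.408 and 0.553 for Ksr2.

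Within each library 1 paralogue of each pair exceeded the other per kb. Braf exceeded Araf 2.81-fold, 5.08-fold and 5.56-fold in high-fat diet libraries 1, 2 and 3, against 6.41-fold, 3.43-fold and 2.65-fold in chow libraries 1, 2 and 3. The Map2k1 level exceeded that of Map2k2 2.35-fold, 2.11-fold and 1.87-fold with the high-fat diet and 2.65-fold, 1.54-fold and 2.10-fold with chow. For Ksr1 over Ksr2 the ratio was at least 140, 439 and 518 in high-fat diet libraries 1, 2 and 3, by the floor of 3 reads for Ksr2, and 3.43, 13.2 and 16.9 in chow libraries 1, 2 and 3. That floor covers counting error alone. With exon length, all 6 libraries agreed in direction for each of the 3 pairs. For the Raf and MEK pairs the exact two-sided sign-flip permutation test gave p = 0.03125, the smallest 6 libraries allow. It was the same after Benjamini-Hochberg adjustment over the 3 pairs. The Ksr ratios include the counts of 0 known when the members were chosen, so for that pair the values are a description and no p-value is read. The geometric mean excess was 4.08-fold for Braf over Araf and 2.07-fold for Map2k1 over Map2k2. The MEK pair depends on the length used, since its mean log2 ratio of 1.05 was 0.34 with coding length in place of exon length (adjusted exact p = 0.0625). Chow library 2 held 599 reads of Map2k1 and 649 of Map2k2. In that library Map2k2 was therefore the higher with coding length and with no length correction.

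**Figure D3:**
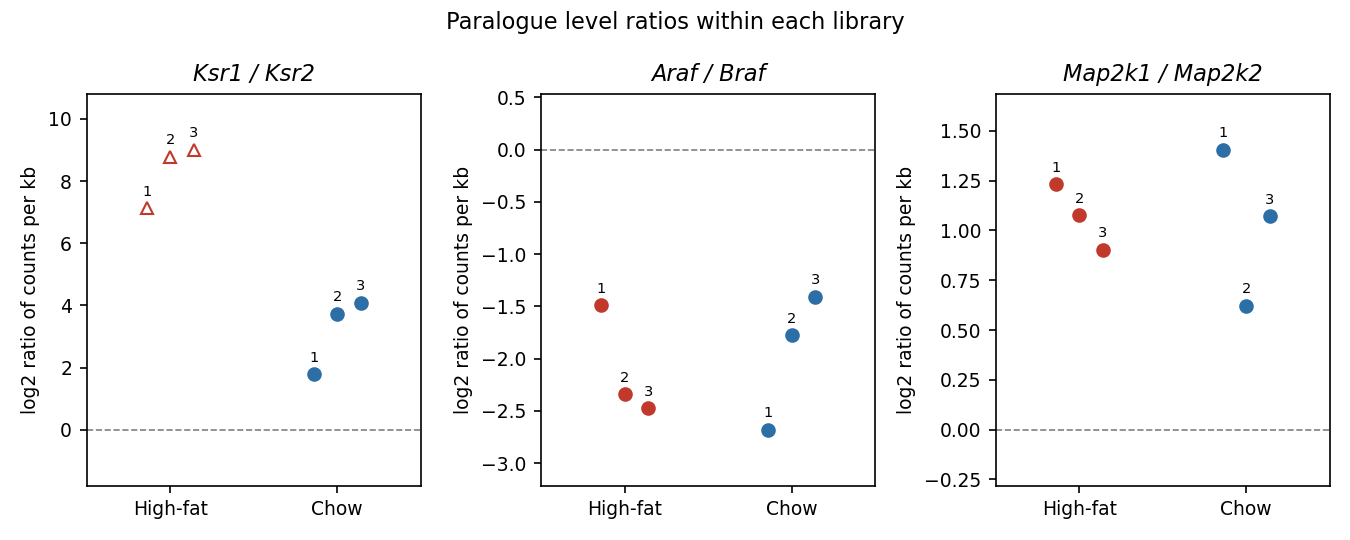
Log2 ratio of counts per kb of exon within each library (vertical axes) for Ksr1 over Ksr2, Araf over Braf and Map2k1 over Map2k2, with high-fat diet libraries left and chow libraries right, numbered by replicate. Open triangles are lower bounds, where Ksr2 was at 0 and was set to 3 reads. All values lie on 1 side of 0 (dashed line) in each panel.

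The paralogues were also compared in sequence. Aligned coding sequences were 68.8% identical for Ksr1 and Ksr2, 66.6% for Araf and Braf, and 78.1% for Map2k1 and Map2k2. No 75-base window was shared between members. Of the windows of Ksr1, Araf and Braf, 1.11%, 0.70% and 0.51% also occurred in a transcript of another gene, and for Ksr2, Map2k1, Map2k2 and Mapk3 none did.

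The rest of the pathway was followed in 8 lists of 115 genes, of which 103 were tested. In edgeR 3 of the 103 were called lower with the high-fat diet and 0 higher. Over all tested genes 0.258% were called and 0.167% were called lower. All 3 were among the ERK-induced transcripts. The lists were chosen with earlier results of these data known, so nothing is read from this count.

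Upstream, the log2 fold change was above 0 for all 7 Ras GTPase genes (median 0.34), and 0 were called or had an unadjusted p under 0.05. Rras2 had 97.7 ± 3.70 CPM with the high-fat diet, against 75.1 ± 16.3 CPM with chow (edgeR adjusted p = 0.834). Of 15 tested genes of Ras activation 10 were positive (median 0.16, but 0.065 without high-fat diet library 1, 0.10 without high-fat diet library 2, 0.33 without high-fat diet library 3 and 0.03 without both libraries that stood apart), with the smallest p for the adaptor gene Gab2 at 49.5 ± 22.8 CPM with the high-fat diet, against 17.5 ± 11.2 CPM with chow (edgeR adjusted p = 0.388). Of 8 tested GTPase-activating proteins, which switch Ras off, 6 were positive (median 0.35), with the smallest p for Dab2ip at a log2 fold change of 0.62 (SE 0.28, edgeR adjusted p = 0.646). Beside the Ksr genes, 25 other scaffolds and Raf regulators had a median of 0.14 with 19 positive (0.08 without chow library 2, 0.22 without both libraries that stood apart), and the scaffold gene Iqgap1 had the smallest p at 415 ± 58.4 CPM with the high-fat diet, against 282 ± 24.8 CPM with chow (edgeR adjusted p = 0.318).

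Downstream, Egr1, Fos and Junb, transcription factor genes induced through ERK and other pathways, fell with the high-fat diet. The levels of Egr1 were 2028, 1410 and 2225 CPM in high-fat diet libraries 1, 2 and 3, against 4115, 5448 and 4669 CPM in chow libraries 1, 2 and 3. Junb had 556, 417 and 799 CPM with the high-fat diet, against 1188, 1353 and 1278 CPM with chow, and Fos averaged 819 ± 277 CPM in high-fat diet libraries and 2297 ± 59.1 CPM in chow libraries (SD, n = 3 each). None of the 3 genes overlapped between the diets, as for 7.87% of all tested genes in this direction. The edgeR adjusted p was 0.00474 for Egr1, 0.00947 for Fos and 0.0394 for Junb. Junb lost its call without any 1 library other than high-fat diet library 3 and with scaling by library size alone, Fos also lost it without chow library 3, and 0 of the 3 were called without both libraries that stood apart. Over the 13 tested transcripts of this list the median log2 fold change was -0.41 with 10 negative, although Ccnd1, the cyclin D1 gene, had 130 ± 44.6 CPM with the high-fat diet, against 66.3 ± 21.6 CPM with chow without passing (edgeR adjusted p = 0.322).

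The feedback inhibitors of ERK, among 10 tested, had a median of -0.07 with 7 negative and no call. This median was -0.32 without chow library 1, -0.10 without high-fat diet library 2, and -0.14 to -0.16 without high-fat diet library 1, high-fat diet library 3, chow library 3 or both libraries that stood apart. Spry1, a Sprouty inhibitor of receptor signalling to Ras, had the smallest p, at 69.1, 110 and 94.1 CPM in high-fat diet libraries 1, 2 and 3, against 140, 183 and 139 CPM in chow libraries 1, 2 and 3 (edgeR adjusted p = 0.318). Its values did not overlap between the diets, as for 7.87% of all tested genes in this direction. Among 12 kinases and Ets factors downstream of ERK the median was -0.04 (0.04 without high-fat diet library 2, 0.09 without chow library 1, 0.02 without chow library 2 and -0.13 without chow library 3), with the smallest p for Mknk2, which phosphorylates the cap-binding initiation factor, at a log2 fold change of -0.62 (SE 0.21, edgeR adjusted p = 0.407). Kinases of the other MAP kinase branches had a median of 0.21 over 13 genes, with the smallest p for Map2k3, an activator of p38, at a log2 fold change of 0.55 (SE 0.21, edgeR adjusted p = 0.502). The sign of this median turned without chow library 3 (-0.15), without chow library 1 (-0.03) and without both libraries that stood apart (-0.09). It was 0.41 without chow library 2, 0.14 without high-fat diet library 2 and 0.11 without high-fat diet library 3. In the 7 lists without a call, 10 of 90 genes had an unadjusted p under 0.05 in edgeR, beside 7.65% of all tested genes, and DESeq2 and limma-voom called 0 of them. With no filter on low counts edgeR also called Gab2 and Ccnd1.

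**Figure D4:**
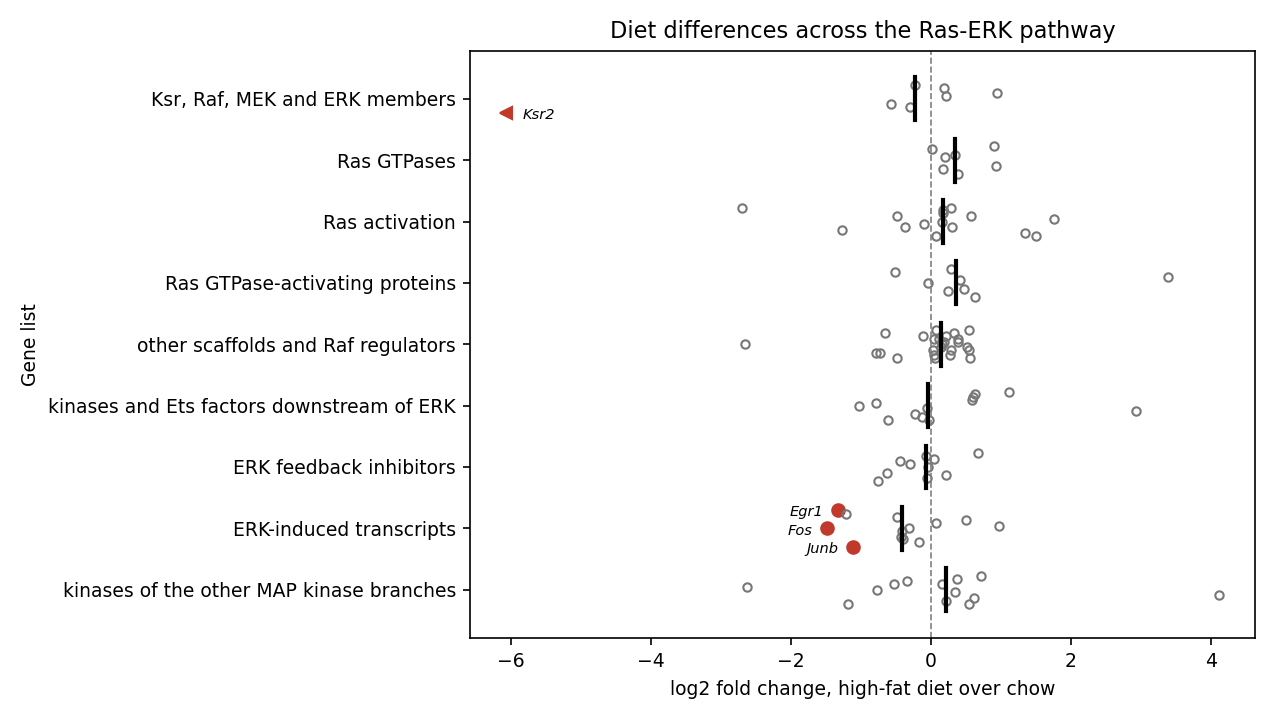
Log2 fold change of high-fat diet over chow (horizontal axis) for each tested gene of the members and of 8 lists of the Ras-ERK pathway (vertical axis). Filled red symbols passed an adjusted p of 0.05 in edgeR, open circles did not, black bars are list medians, and the triangle marks Ksr2 at its bound of -6.07. Apart from Ksr2, the genes that passed are Egr1, Fos and Junb.

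Markers of other cell types were followed as well. Over 8 such lists 0 of 45 tested genes were called in edgeR, and 1 had an unadjusted p under 0.05. Summed endothelial markers ran from 259 to 441 CPM with the high-fat diet and from 303 to 377 CPM with chow, and those of fibro-adipogenic progenitors from 952 to 1281 CPM in high-fat diet libraries and from 807 to 1067 CPM in chow libraries. Both ranges overlapped. Their median log2 fold changes were 0.04 for endothelial and 0.21 for fibro-adipogenic markers. The median was -0.50 for 7 mural cell markers, all negative, -0.51 for 4 tested tenocyte markers and -0.64 for 4 tested myofibre markers. The part of all these cells in the members' levels was not tested.

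For each member the gene with the most similar pattern over the 6 libraries was named from 8796 candidates by Pearson correlation of log2 CPM, as a description. Ksr1 was most like Rabif (r = 0.997, Spearman's rho = 1.00), and Mapk3 most like Orai1, the pore of store-operated calcium channels (r = 0.997, rho = 0.943). Without the 2 libraries farthest from the member's median the values were 0.994 for Ksr1 and 0.955 for Mapk3. As many as 100 genes for Ksr1 and 123 for Mapk3 reached 0.95, and these points share the libraries that stood apart. For Ksr2, at 0 in 3 of the 6 points, it was Gpr155 (r = 0.987, rho = 0.986), with 29 genes at 0.95 or more. Without chow libraries 1 and 3 the value for Ksr2 was 0.970. Chow library 2 was then the only point with reads of Ksr2, so nothing is read from that value. The partners were Syde2 for Araf (0.988), Pwwp2b for Braf (0.985), Epb41l1 for Map2k1 (0.996) and Washc4 for Map2k2 (0.989), with rho from 0.943 to 1.00 and r without 2 libraries from 0.966 to 0.994. Between members the correlation ran from -0.593 for Ksr2 with Mapk3 to 0.510 for Ksr1 with Ksr2 over 21 pairs.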

How the data were processed

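RNA of satellite cells (integrity numbers of 8.5 to 9.4) was depleted of ribosomal RNA and sequenced as 75-bp single reads, per the labels' protocols. The deposited values are raw counts of reads per Entrez gene ID, 1 library per table. Bowtie2 and featureCounts with GRCm38 and mm10 are named in the submitters' processing notes; versions, strand setting and the treatment of multiply mapped reads are not given in the sources used here. Where genes overlap, the source of a read is therefore uncertain.

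Symbols and coordinates came from RefSeq GRCm38.p6 (25275 of 27179 IDs matched) and exon lengths from GENCODE M21. The tests used edgeR 4.0.16 in R 4.3.3 (filterByExpr with minimum count 10, TMM scaling, quasi-likelihood F test across all 13202 genes, two-sided, Benjamini-Hochberg adjusted p under 0.05, diet as the only factor). Standard errors were derived from each log2 fold change and its F statistic. For paralogue ratios 0.5 was added to every count. Alternatives were other scalings and filters, DESeq2 1.42.0, limma-voom (limma 3.58.1), robust dispersions, a replicate block, other thresholds, and fits without libraries. The procedures were tested on simulated data.

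The members, lists and alternatives were chosen with earlier results of these data known. All members were named, with the most similar gene for each, and from each pathway list the genes that passed or else the gene with the smallest p. Ccnd1 and Kdr were added after their values were seen. Some genes of the pathway are not reported here.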

Additional observations from a re-analysis of the deposited data

How the results depend on the processing

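The number of genes called, 34 with all libraries, ran from 9 to 44 when 1 library was left out, and was 163 with no filter on low counts, 198 with DESeq2, 99 with limma-voom and 1 without both libraries that stood apart. The number of members called, 1 with all libraries, was 0 with limma-voom, 0 with the replicate number as a block, 0 without both libraries that stood apart and 0 in each of the 6 fits without 1 library (range 0 to 0), which leave fewer samples. Of the pathway genes, 3 with all libraries, 5 were called with no filter, 4 with DESeq2 (Fosl2 in addition), 2 with library-size scaling (Egr1 and Fos), 0 without both libraries that stood apart, and 1 to 3 when 1 library was left out. The replicate numbers did not pair the libraries, since deviations of same-numbered libraries correlated by 0.0245, 0.0346 and -0.0261. With the replicate block 45 genes were called, and Ksr2 was not (edgeR adjusted p = 0.0594). Only the sign of Braf without chow library 1 (log2 fold change 0.0077, and -0.469 without chow library 3) and that of Ksr1 without both libraries that stood apart (0.0445) reversed among the members. Without any 1 library the exact paralogue test cannot go below 0.0625, and the mean log2 ratios ran from 6.13 to 8.10 for Ksr1 over Ksr2 with 0.5 added to each count, from -2.15 to -1.90 for Araf over Braf and from 0.98 to 1.14 for Map2k1 over Map2k2. The last was 0.341 with coding length and 0.312 with no length correction, and did not pass in either (adjusted exact p = 0.0625). In both of these settings chow library 2 had the opposite direction. Beyond the smaller number of libraries in some fits, the cause was not tested. By counting error alone, a gene under 0.162 to 0.195 CPM, by library, could not be told from 0 at this depth. The libraries varied by more than that, with a common coefficient of variation of 82.6% in edgeR. Genes with means above this floor also read 0, as 228 of 2056 genes with a mean of 5 to 10 CPM did in at least 1 library.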
